A study of Mus musculus with 3 samples.

Results

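Dendritic cells of mouse dorsal skin were picked out of a single-cell RNA series by their transcripts. A cell was counted as a member if at least 20 of every 10000 unique molecular identifiers (UMIs, each one captured transcript) came from Cd74, the invariant chain of MHC class II, and if at least 2 of 8 dendritic cell genes were detected (Flt3, Zbtb46, Cd209a, Clec9a, Xcr1, Ccr7, Fscn1 and Ccl22). Cells with 10 or more C1qa, C1qb and C1qc UMIs per 10000, as in resident macrophages, were left out, and so were cells with at least 5 Cd207 UMIs together with Epcam, as in epidermal Langerhans cells, and cells with any UMI of the B cell gene Cd79a or the T cell gene Cd3e. The rule found 189 cells among the 24858 that had at least 300 genes and at most 20% mitochondrial UMIs. They were 5 of 6422 cells in the IMQ+celastrol library, 34 of 8008 in the IMQ library and 150 of 10428 in the normal library. The values that chose these cells, and the genes tied to them, are given as descriptions.

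The skin came from C57BL/6 mice 7 weeks old, with 1 droplet library of 3' transcripts per group. The IMQ+celastrol skin (group CE of the study) had been given imiquimod and celastrol, a plant triterpenoid. The IMQ skin had been given imiquimod, an agonist of Toll-like receptor 7 that raises a psoriasis-like dermatitis in mice, and the normal skin had been given glycerin. The labels name neither the number of mice per library nor a split of dermis from epidermis, so "dermal" rests on the exclusion of Langerhans cells by the rule. With 1 library per group no test between treatments could be made. All intervals are 95% intervals of counting error, and the differences between libraries hold treatment, animal and library together, which cannot be told apart.

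Conventional dendritic cells take up antigen in tissue, carry it through lymph vessels to the draining node and show it to T cells on MHC molecules. Type 1 cells (Xcr1, Clec9a, the transcription factors Irf8 and Batf3) are known for presenting antigen of dead cells to CD8 T cells. Type 2 cells (Sirpa, Irf4, in mouse dermis also the lectins Cd209a, Mgl2 and Clec10a) mainly prime CD4 T cells, and cells of either type that mature switch on Ccr7, the receptor that guides them to the node, with Fscn1, an actin bundler, and the chemokine Ccl22. In the imiquimod model skin dendritic cells are studied as sources of interleukin 23, which acts upstream of interleukin 17.

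The libraries held 103267738 UMIs in IMQ+celastrol, 119831835 in IMQ and 77880943 in normal. The members summed to 74998, 635146 and 1087869 UMIs, with a median per member of 16925 in IMQ+celastrol, 14194 in IMQ and 6754.5 in normal, so the library with the most members was also the one in which they were read least deeply. By score of the doublet caller Scrublet, all 5 IMQ+celastrol members, 18 of 34 IMQ members and 19 of 150 normal members were among the 5.14%, 6.41% and 8.34% of kept cells of those libraries with the highest scores. The caller itself marked 92, 0 and 182 cells of the IMQ+celastrol, IMQ and normal libraries, and 0, 0 and 4 members. It marked no IMQ cell of any kind, so its 0 for IMQ members carries no information. No cell was removed on this score, and shares and the main gate values are also given without these cells. In 3 IMQ members and 7 normal members at least 100 UMIs per 10000 were keratinocyte or fibroblast marker transcripts, and the 3 IMQ cells alone held 29.5% of the UMIs of the IMQ members. No barcode was shared between members of different libraries.

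The label was checked on genes that the rule did not use. Members were sorted in order into a mature gate (Ccr7 with Fscn1 or Ccl22), a type 1 gate (Xcr1 or Clec9a without Cd209a) and a type 2 gate (Cd209a without Xcr1 or Clec9a), and the rest stayed in no gate. Of the 13 other type 1 genes, 10 had at least 10 UMIs in the type 1 and type 2 gates of the IMQ library and 10 in those of the normal library, and all of these were higher in the type 1 gate. Of the 19 other mature genes, all 15 measured in IMQ and all 17 measured in normal were higher in the mature than in the type 1 gate. The type 2 list, with 8 of 9 genes higher in the type 2 than in the type 1 gate of normal skin, separated less well from the mature gate there, where 6 of 8 were higher. By their highest list, 11 of the 27 mature-gate cells of normal skin scored for type 2, so a mature gate there includes cells with type 2 transcripts. Some genes that define other cells were at or near 0. Folr2 was at 0 in every library, Pf4 had 0, 0 and 8 UMIs in IMQ+celastrol, IMQ and normal members, Lyve1 0, 0 and 1, and Siglech, a gene of plasmacytoid dendritic cells, 0, 4 and 6. Other lists were not low. The monocyte list summed to 267, 1312 and 2380 CPM in IMQ+celastrol, IMQ and normal members, against 445, 1266 and 333 CPM in the other kept cells. The macrophage list was 488 CPM in normal members and 93.8 CPM in other kept cells. The B cell list was 66.7, 77.1 and 71.7 CPM in IMQ+celastrol, IMQ and normal members, and 15.5, 59.7 and 8.80 CPM in other kept cells. In IMQ members the Langerhans list, which includes Cd207 and Epcam of the rule, was 1730 CPM (711 CPM in other kept cells). The keratinocyte list was 4445 CPM and the neutrophil list 4294 CPM in IMQ members. This last pair were 107 and 118 CPM without the 3 members that carried keratinocyte or fibroblast RNA. The part of these transcripts in the results was not tested.

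**Figure D1:**
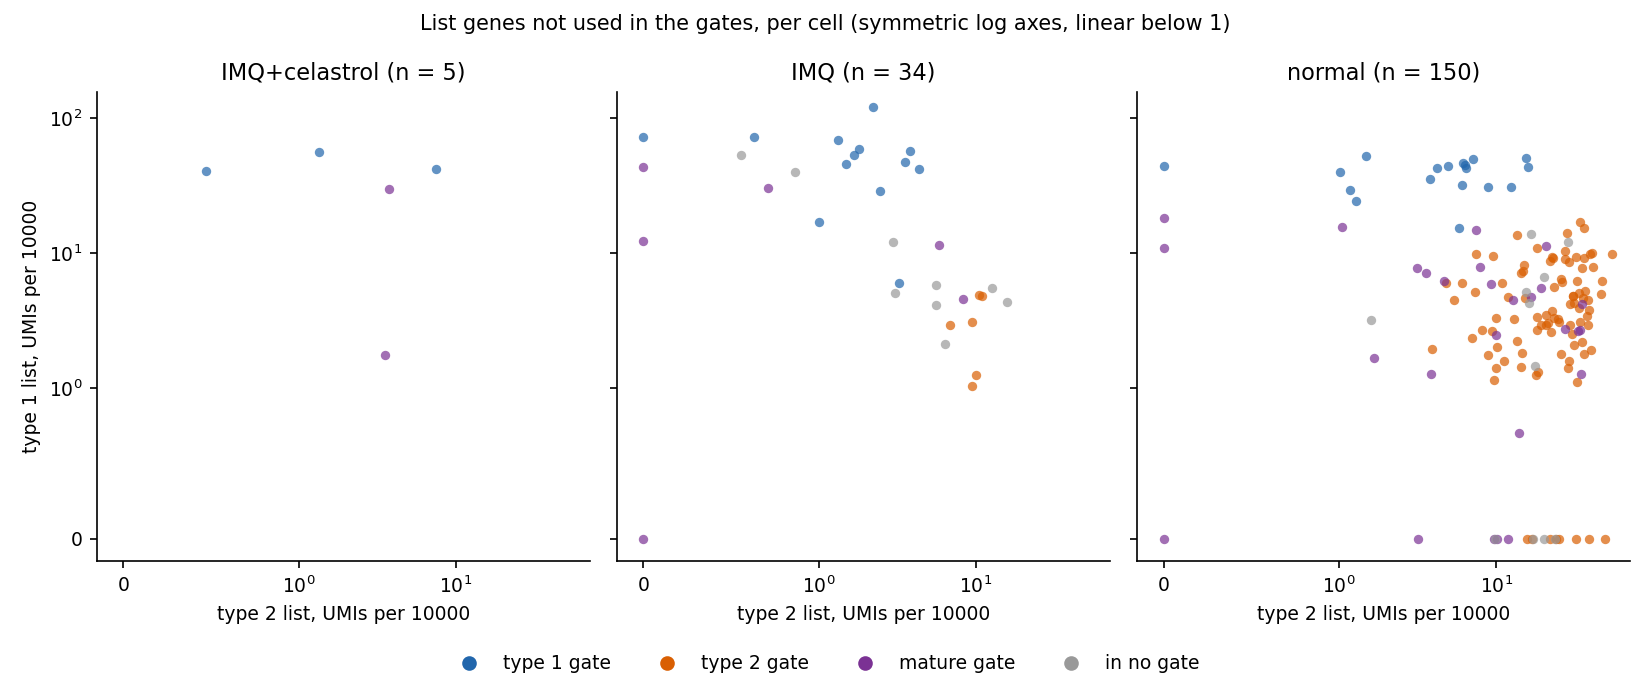
Summed UMIs per 10000 of the type 1 list (vertical axis) and the type 2 list (horizontal axis) in each dendritic cell, with one panel per library and colour by gate; list genes exclude the gating genes. Type 1-gate cells sit high on the vertical axis in all 3 libraries, and the dense cloud of type 2-gate cells in the normal library (94 cells) is thin in IMQ (6 cells) and absent in IMQ+celastrol.

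Cells that met the dendritic cell rule were scarcer in both imiquimod libraries than in normal skin. They made up 0.0779% of kept cells in IMQ+celastrol (interval 0.0253 to 0.182), 0.425% in IMQ (0.294 to 0.593) and 1.44% in normal (1.22 to 1.69). The IMQ share was 3.39-fold lower than the normal share (2.32 to 5.07). The IMQ+celastrol share was 5.45-fold lower than the IMQ share (2.12 to 17.9) and 18.5-fold lower than the normal share (7.74 to 57.7). The intervals of the 3 shares did not overlap one another. Cd209a, a gene of the rule, was detected in 0 of 5 IMQ+celastrol members, 6 of 34 IMQ members and 109 of 150 normal members. Fewer dendritic cells and less Cd209a per cell therefore cannot be told apart by these shares.

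The choice of denominator and the doublet score both bear on these sizes. Among cells with a UMI of Ptprc (CD45, carried by blood-derived cells), members numbered 4 of 555 in IMQ+celastrol (0.721%), 30 of 1644 in IMQ (1.82%) and 123 of 1160 in normal (10.6%). On that base IMQ was 5.81-fold lower than normal (3.87 to 8.97), while IMQ+celastrol was 2.53-fold lower than IMQ with an interval of 0.892 to 9.89 that includes no difference. Without the cells of highest doublet score, 0 of 6092 cells remained in IMQ+celastrol, with an exact interval that reaches 0.0605%, against 16 of 7495 in IMQ (0.213%) and 131 of 9558 in normal (1.37%). After thinning every cell to 2000 UMIs, members were 0.0168%, 0.191% and 0.719% of the cells deep enough to be thinned, the same order. These were 1, 14 and 67 cells in IMQ+celastrol, IMQ and normal. Of them 1, 10 and 61 had been members at full depth. Thinning left out 452, 673 and 1112 shallower cells in IMQ+celastrol, IMQ and normal.

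Langerhans cells and C1q macrophages, defined from the exclusion limits of the same rule, differed less between IMQ and normal. Macrophages also had to hold a UMI of each of C1qa, C1qb and C1qc, which is harder to meet at low depth. Their median depth was 4744, 8039 and 2430 UMIs in IMQ+celastrol, IMQ and normal, and the effect on their shares was not tested. Langerhans cells were 0.218% of kept cells in IMQ+celastrol, 0.787% in IMQ and 1.16% in normal, and the IMQ share was 1.47-fold lower than the normal share (1.08 to 2.03). C1q macrophages were 0.234%, 0.887% and 0.969%, with IMQ 1.09-fold lower than normal (0.798 to 1.5). The dendritic cell interval for IMQ over normal lies outside both. Between IMQ+celastrol and IMQ, Langerhans cells were 3.61-fold lower (2.0 to 6.97) and macrophages 3.8-fold lower (2.15 to 7.14) in IMQ+celastrol, and these intervals overlap the one for dendritic cells.

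By gate, the difference between IMQ and normal lay mainly in the type 2 gate. That gate is set by Cd209a, a gene of the rule. Fewer type 2 cells and less Cd209a per cell therefore cannot be told apart by these counts. Type 2-gate cells numbered 0 in IMQ+celastrol, 6 in IMQ and 94 in normal, which is 0.0749% of kept cells in IMQ and 0.901% in normal, 12.0-fold lower in IMQ (5.33 to 33.6). The exact interval of 0 of 6422 in IMQ+celastrol reaches 0.0574%, and 3 cells would be 0.0467%. Type 1-gate cells numbered 3, 13 and 18, or 0.0467%, 0.162% and 0.173% of kept cells, and IMQ was within the counting error of normal (1.06-fold lower, 0.493 to 2.36). Mature-gate cells numbered 2, 6 and 27, with IMQ 3.46-fold lower than normal (1.40 to 10.2), and ungated cells numbered 0, 9 and 11. As a share of dendritic cells, type 1 cells were 38.2% in IMQ (22.2 to 56.4) and 12% in normal (7.27 to 18.3), and type 2 cells 17.6% in IMQ (6.76 to 34.5) and 62.7% in normal (54.4 to 70.4).

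Without the cells of highest doublet score the type 2 difference was at least as large, with 4 such cells in IMQ (0.0534%) and 86 in normal (0.900%). The near equality of type 1 cells did not hold. There, 9 of the 13 IMQ cells and 0 of the 18 normal cells were among the highest scores, which left 4 cells in IMQ (0.0534%) and 18 in normal (0.188%). The median depth of type 1-gate cells was 21199 UMIs in IMQ+celastrol, 15866 in IMQ and 8748.5 in normal. Type 1 shares after thinning are given with the processing checks below, for IMQ+celastrol and IMQ only. Whether doublets or depth set the type 1 count was not tested.

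**Figure D2:**
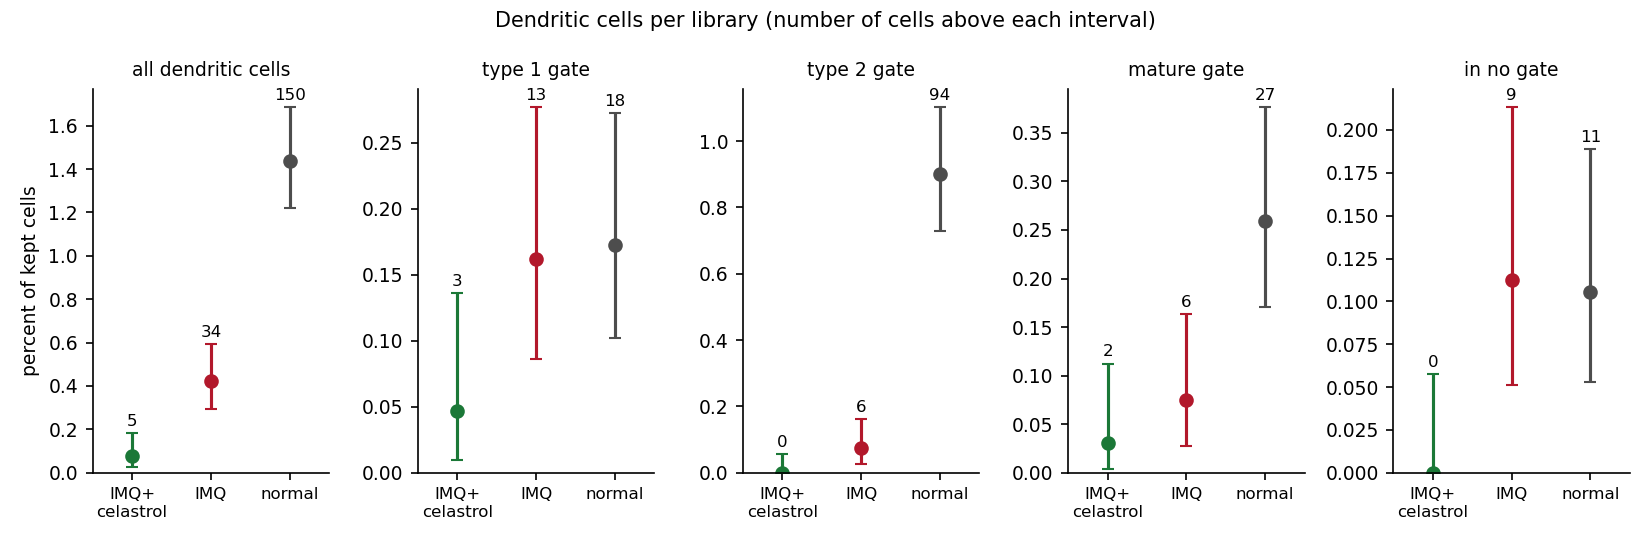
Percent of kept cells (vertical axes, each from 0, on different scales) that are dendritic cells or fall in each gate, by library, with exact 95% binomial intervals and the number of cells above each. The type 2 panel shows 0, 6 and 94 cells in IMQ+celastrol, IMQ and normal, while the IMQ and normal intervals overlap widely for type 1.

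Type 2 transcripts were also scarce over all kept cells, whether or not they met the rule. Cd209a was detected in 6 cells of IMQ+celastrol, 15 of IMQ and 239 of normal. Mgl2, a galactose-type lectin of dermal type 2 cells that the rule did not use, was detected in 12, 16 and 323 kept cells. The rule itself kept 109 of the 239 Cd209a cells of normal skin and 6 of the 15 of IMQ skin. One step outside the marker threshold, 11, 29 and 117 cells met every other condition with 1 of the 8 genes, and just inside it 4, 18 and 93 members had exactly 2.

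Among members, Mgl2 had 0 UMIs in the 5 IMQ+celastrol cells, 1 UMI in the 34 IMQ cells and 1062 UMIs in the 150 normal cells, or 0, 1.57 and 976 CPM (UMIs per 1000000 UMIs of the group). The highest normal cell held 35 of them. The IMQ level was 620-fold lower than the normal level (111 to 24513). Mgl2 was detected in 1 of 34 IMQ members and 111 of 150 normal members, against 0.0399% and 0.219% of fibroblast-marked cells (Col1a1 without Ptprc, median depths 10919 and 4911 UMIs). Mgl2 was 0.585, 0.185 and 14.0 CPM in the other kept cells of IMQ+celastrol, IMQ and normal.

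Some other lectins went the same way. They are named singly because they were lower, give no count over the lectin list and do not stand for it. Clec10a had 0, 12 and 185 UMIs in IMQ+celastrol, IMQ and normal members. Cd209d, a DC-SIGN relative, had 0, 0 and 927 UMIs in IMQ+celastrol, IMQ and normal members, at least 180-fold lower in IMQ when the floor is 3 UMIs over the group. Cd209e had 0, 0 and 239 UMIs, at least 46.5-fold lower in IMQ. Irf4, a transcription factor of type 2 cells, had 4 UMIs in 1 IMQ+celastrol cell, 1 UMI in IMQ and 79 UMIs in normal. The mannose receptor Mrc1 had 0, 6 and 176 UMIs, and was 17.1-fold lower in IMQ than in normal (7.71 to 47.3). Cd163, a scavenger receptor known from macrophages, had 0, 0 and 70, and the elastase Mmp12 0, 0 and 146.

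Further genes that were much lower in IMQ were Ear2, an eosinophil-type ribonuclease, with 0, 0 and 68 UMIs, and Gfra2, a neurotrophic factor receptor, with 0, 1 and 79. The same lectins were also scarce outside the dendritic cells. In C1q macrophages Mgl2 was 0, 3.15 and 392 CPM in IMQ+celastrol, IMQ and normal, and Cd209d was 0, 0 and 369 CPM. Mrc1, by contrast, was 531, 574 and 1022 CPM in these macrophages. Summed over 9 macrophage genes, dendritic cells held 66.7, 102 and 488 CPM, against 3694, 2563 and 13227 CPM in C1q macrophages. In IMQ+celastrol members 8 of the 9 macrophage genes were at 0, Pf4, Lyve1 and Folr2 among them. The part of macrophage RNA in the lectin difference was not tested.

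**Figure D3:**
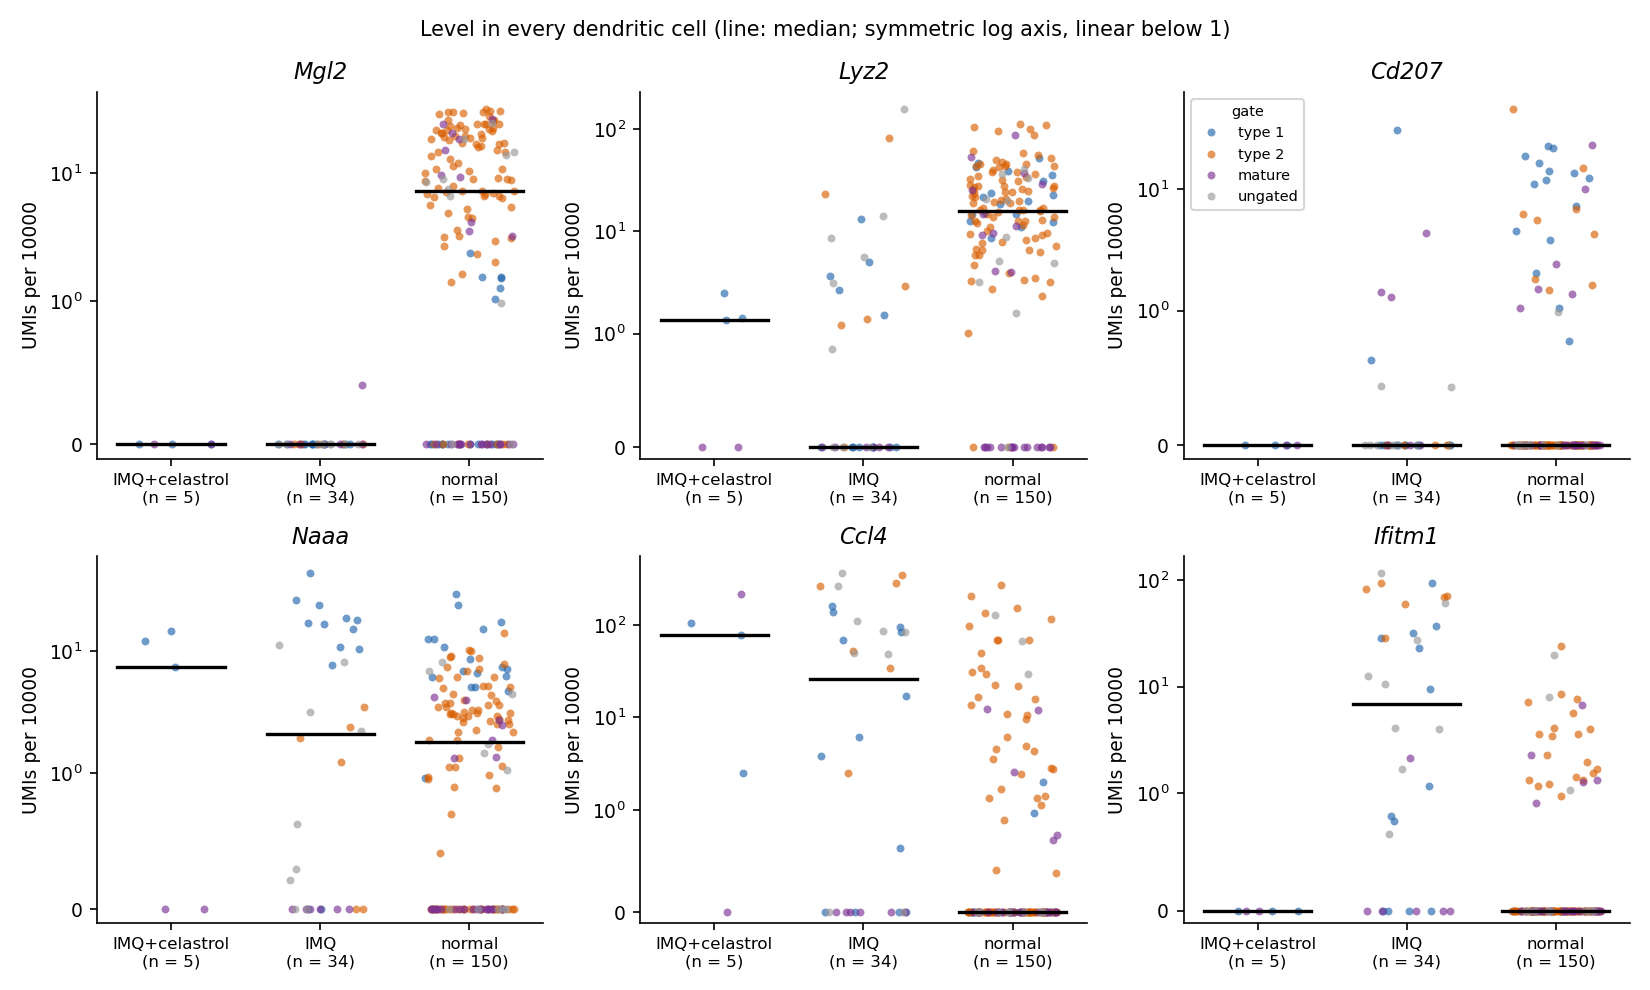
UMIs per 10000 of 6 genes (vertical axes, symmetric log) in every dendritic cell of each library, coloured by gate, with the median as a line. Mgl2 is at 0 in every IMQ+celastrol cell and all but 1 IMQ cell, against a median of 7.21 in normal, while the highest Ccl4 and Ifitm1 values lie in IMQ type 2-gate and ungated cells.

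Across all genes, 6835 had at least 20 UMIs in the IMQ and normal members together. A gene was called higher or lower when the CPM ratio was at least 2-fold and its counting interval left out 1. On this rule 13.7% of the genes were higher and 5.19% lower in IMQ than in normal members (937 and 355 genes), and the median log2 ratio over all of them was 0.25. Centred on that median, the split was 601 higher and 543 lower. Calls take UMIs as independent and leave out the spread between cells, so lists are read against these shares and not against chance.

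Of the 8 genes measured from the type 2 list, 5 were lower and 0 higher in IMQ members, with a median log2 ratio of -1.14. Of 11 genes of the type 1 list, 9 were higher and 0 lower, with a median of 1.3. With the gates weighted alike, so that their different numbers no longer count, the type 1 median was 0.30. The cell cycle list (8 of 15 higher, 0 lower, median 1.08) moved to 0.47 in the same way. MHC class II genes (1 of 11 higher, 4 lower, median -0.46) moved to 0.07. These 3 medians thus depended on the weight given to each gate. Equal weights also change the weight of the deepest cells, and what set the shift was not tested. The interferon-stimulated list, with 8 of 15 higher and 1 lower, had a median of 1.23. Heat shock genes were higher in 5 of 13 and lower in none (median 0.93), chemokines higher in 5 and lower in 3 of 13 (median 0.51), and costimulation genes lower in 4 of 10 and higher in none (median -0.99). The last median was -0.01 when each cell counted alike, and that of chemokines was -0.48 without the members that carried keratinocyte or fibroblast RNA.

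**Figure D4:**
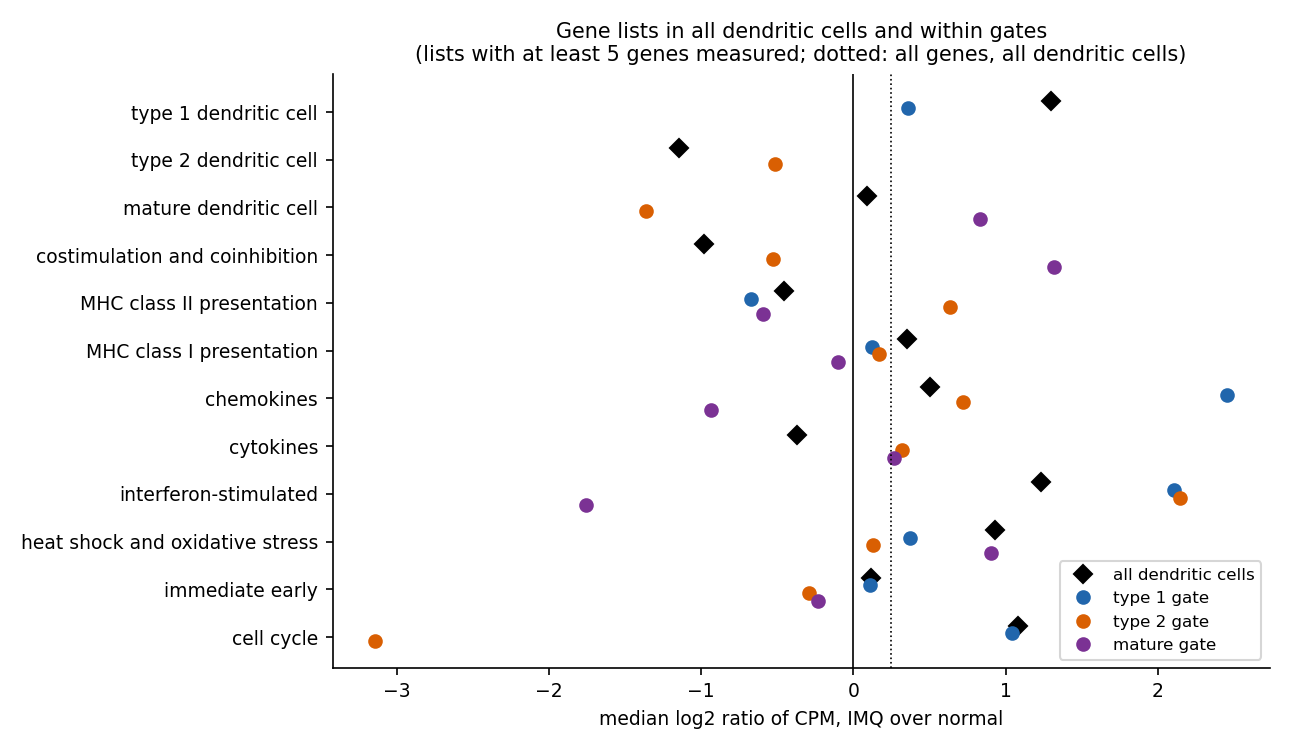
Median log2 ratio of CPM, IMQ over normal (horizontal axis), for 12 gene lists in all dendritic cells (black diamonds) and within each gate (circles), for lists with at least 5 genes measured. The interferon-stimulated list lies at 2.11 in the type 1 gate and 2.14 in the type 2 gate but at -1.76 in the mature gate.

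Within the type 1 gate, 15.2% of 2292 genes were called higher and 3.40% lower in IMQ than in normal. Of 10 type 1 genes measured outside the gate 1 was higher and 1 lower (median log2 ratio 0.36). Naaa, a lysosomal acid amidase high in type 1 cells, ran at 7.48, 12.2 and 14.6 UMIs per 10000 in the 3 IMQ+celastrol cells, had a median of 16.9 in the 13 IMQ cells (range 0 to 43.7) and of 7.26 in the 18 normal cells (0.966 to 29.5). The ranges overlap. Irf8, which type 1 cells need to develop, had medians of 9.92, 16.4 and 9.13. Wdfy4, required for cross-presentation, was detected in all 3, all 13 and 16 of 18 cells, against 0.0415%, 0.0399% and 0.0729% of fibroblast-marked cells (median depths 9769, 10919 and 4911 UMIs).

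Cd207 (langerin) and Lyz2 were detected in fewer IMQ than normal type 1 cells. Cd207, the lectin that marks dermal type 1 cells in mouse as well as Langerhans cells, was detected in 0 of 3 IMQ+celastrol cells, 2 of 13 IMQ cells and 15 of 18 normal cells, against 0.208%, 0.239% and 0.182% of fibroblast-marked cells. Its level was 187 CPM in IMQ and 902 CPM in normal, 4.83-fold lower in IMQ (3.41 to 6.98). One IMQ cell held 42 of the 43 UMIs of its gate, and among the 4 IMQ cells without the highest doublet scores, which include it, Cd207 was 957 CPM, so the difference in level was gone there. Lyz2, lysozyme M of myeloid cells, had a median of 1.42 UMIs per 10000 in IMQ+celastrol, 0 in IMQ (highest 13.2) and 20.8 in normal (8.69 to 52.3), and it was detected in 3 of 3, 5 of 13 and 18 of 18 cells, against 4.40%, 5.62% and 1.28% of fibroblast-marked cells. The Lyz2 level was 14.9-fold lower in IMQ than in normal type 1 cells (10.7 to 21.3). Over all kept cells other than members, Lyz2 was 588 CPM in IMQ and 109 CPM in normal, the opposite direction. In C1q macrophages it was 6544 and 8024 CPM. In the 4 IMQ cells without the highest doublet scores Lyz2 was 615 CPM, below the 2528 CPM of the normal type 1 cells.

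Of 5 chemokine genes measured in the type 1 gate 3 were higher in IMQ (Ccl4, Ccl3 and Cxcl10) and 1 lower (Cxcl9), and of 5 interferon-stimulated genes 3 were higher and 0 lower. One cell held 43 of the 45 Ccl3 UMIs of the IMQ gate. Ccl4, an inflammatory chemokine, had 398 UMIs in the 3 IMQ+celastrol cells, 1029 UMIs in the 13 IMQ cells and 3 UMIs in the 18 normal cells. It was detected in 3 of 3, 9 of 13 and 2 of 18, and the ratio of IMQ to normal was 226-fold (77.1 to 1098). In the 4 IMQ cells without the highest doublet scores Ccl4 was 4877 CPM, against 19.7 CPM in normal. It was detected in only 2 of these 4 cells, and 1 cell held 188 of the 214 UMIs. Fibroblast-marked cells held a Ccl4 UMI in 4.53%, 3.23% and 0.364% of cells (median depths 9769, 10919 and 4911 UMIs). Ifitm1, a membrane protein that restricts virus entry, had 0, 324 and 0 UMIs, at least 71.2-fold higher in IMQ than in normal, but it was also present in 74.9% of IMQ and 25.7% of normal fibroblast-marked cells. Its level in other kept cells was 130, 419 and 62.2 CPM. Isg15, a ubiquitin-like protein induced by interferon, had 49, 42 and 1 UMIs. Without the highest doublet scores, the 4 remaining IMQ cells held Ifitm1 at 798 CPM, against 1406 CPM in all 13, with all 35 UMIs in 1 cell. Isg15 was 114 CPM in those 4 and 182 CPM in all 13, and Cxcl10 and Ccl3 were at 0 in the 4.

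The 6 type 2-gate cells of IMQ skin differed from the 94 of normal skin in the genes named here. In this gate 5.64% of 3828 genes were called higher and 4.68% lower. Mgl2 was at 0 in all 6 IMQ cells and detected in 86 of 94 normal cells, with a median of 11.7 UMIs per 10000 there, at least 24.8-fold lower in IMQ. Ifitm1 ran at 41 to 78 UMIs in each IMQ cell and at 0 to 18 UMIs in the normal cells. In other kept cells Ifitm1 was also higher, at 419 CPM in IMQ and 62.2 CPM in normal. Per 10000 UMIs of a type 2-gate cell Ifitm1 was 28.7 to 94.5 in IMQ and 0 to 24 in normal. Ccl4 had a median of 158 UMIs per 10000 in IMQ (2.5 to 350) and 0 in normal (highest 270), which overlap. Without the highest doublet scores, 4 IMQ cells and 86 normal cells remained, with Ifitm1 at 59.8 to 82.6 and at most 24 UMIs per 10000, and Ccl4 at 7547 and 1814 CPM. Isg15 was 1287 and 155 CPM in all IMQ and normal cells of the gate, and 351 and 190 CPM without these.

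The summed interferon list ran at 73.6 to 114 UMIs per 10000 in the 6 IMQ type 2-gate cells, with a median of 82.6, and at 0 to 141 with a median of 10.3 in the normal ones. Of 9 interferon genes measured 5 were higher and 0 lower. Ifitm3 was 3879 CPM in IMQ and 360 CPM in normal, 10.8-fold higher (8.94 to 13). Ifit1, which binds viral RNA, was 740 and 36.6 CPM, 20.2-fold higher (12.1 to 34.6). Monocyte genes stood beside these values. Of the 7 listed, 4 had enough UMIs to be measured, with Plac8 2.68-fold higher (1.45 to 4.65), Ly6c2 3.37-fold higher (1.23 to 8.02) and Ms4a4c and Lyz2 not called. Ccr2, the receptor that brings monocytes into tissue, was 3.93-fold higher (2.09 to 7.04) in IMQ, while the summed monocyte list had medians of 10.9 and 23.9 UMIs per 10000 in IMQ and normal. The part of monocyte-derived cells in the difference was not tested.

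The promoters of 4 of the interferon-pathway genes are shown. Isg15 and Ifit1, from the list, and Cxcl10, a chemokine for CXCR3-bearing T cells, were called higher in IMQ than in normal members, and Ifnb1 encodes interferon beta, which induces them. Each line is the 250 bases before the RefSeq start on the gene's own strand, in build GRCm38.p6, at chr4:156200819-156201068 (Isg15, minus strand), chr19:34640639-34640888 (Ifit1, plus strand), chr5:92348890-92349139 (Cxcl10, minus strand) and chr4:88522795-88523044 (Ifnb1, minus strand). Capitals mark matches on either strand to the core of the interferon-stimulated response element (GAAA, any 2 bases, GAAA) or to an NF-kB motif (GGGA, any 2 bases, TTCC); overlapping matches run together.
Isg15: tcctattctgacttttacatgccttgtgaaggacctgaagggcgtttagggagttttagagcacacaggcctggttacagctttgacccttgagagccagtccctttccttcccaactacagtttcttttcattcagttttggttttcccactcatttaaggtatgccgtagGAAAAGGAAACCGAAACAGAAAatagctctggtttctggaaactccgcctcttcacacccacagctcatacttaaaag
Ifit1: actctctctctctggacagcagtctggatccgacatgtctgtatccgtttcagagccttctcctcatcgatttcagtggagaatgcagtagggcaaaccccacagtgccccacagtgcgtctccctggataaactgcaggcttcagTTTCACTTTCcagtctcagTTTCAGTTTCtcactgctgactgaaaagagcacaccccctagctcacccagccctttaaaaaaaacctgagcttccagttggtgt
Cxcl10: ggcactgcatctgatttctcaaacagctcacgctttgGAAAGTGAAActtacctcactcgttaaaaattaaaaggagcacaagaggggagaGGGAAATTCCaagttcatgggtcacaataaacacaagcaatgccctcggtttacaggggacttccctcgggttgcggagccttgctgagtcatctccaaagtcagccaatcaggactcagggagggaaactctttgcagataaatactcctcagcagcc
Ifnb1: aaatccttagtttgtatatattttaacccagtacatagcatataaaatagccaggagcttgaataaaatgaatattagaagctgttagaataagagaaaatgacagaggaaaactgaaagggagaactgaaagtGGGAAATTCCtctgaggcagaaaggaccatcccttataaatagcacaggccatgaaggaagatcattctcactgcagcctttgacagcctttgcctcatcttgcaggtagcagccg
The response element core was present in 7 of the 14 list genes with a RefSeq promoter (50%) and in 936 of all 27025 genes (3.46%). The NF-kB motif was present in 2 of 14 (14.3%) and in 368 of 27025 (1.36%). Isg15 and Ifit1 hold the first motif alone, Ifnb1 the second alone and Cxcl10 both. A match is a run of letters and not a measured binding site.

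Cxcl10 had 195 UMIs in IMQ+celastrol members, 339 in IMQ members and 63 in normal members, and was 9.22-fold higher in IMQ than in normal (7.03 to 12.3). It was detected in 3 of 5, 22 of 34 and 20 of 150 cells, but also in 26.0%, 32.3% and 15.5% of fibroblast-marked cells, and other kept cells of the libraries held 169, 201 and 114 CPM. Ccl3, a relative of Ccl4, was 80.0 CPM in IMQ+celastrol, 395 in IMQ and 46.9 in normal, 8.43-fold higher in IMQ than in normal. Ifih1, a sensor of double-stranded RNA, was 142 CPM in IMQ and 23.9 CPM in normal. Ifit2 was 91.3 and 8.27 CPM and Cd69, an early activation antigen, 96.0 and 11.9 CPM, with 53.4% and 54.1% of the IMQ UMIs in 1 cell. Ifnb1 had 38, 40 and 8 UMIs. These sat in 2, 3 and 2 cells, so the Ifnb1 level of each library is that of a few cells. Of fibroblast-marked cells 0.0831%, 0% and 0.0729% held an Ifnb1 UMI. Il23a, which encodes the specific subunit of interleukin 23, had 3, 28 and 0 UMIs, from 1 IMQ+celastrol cell and 3 IMQ cells, and 1 mature IMQ cell held 23 of the 28. In other kept cells Il23a was 2.86, 11.7 and 1.78 CPM, and its UMIs there numbered 293, 1394 and 136. Il12b, the subunit that interleukins 12 and 23 share, had 16 UMIs in 1 IMQ+celastrol cell and 2 UMIs in 1 IMQ cell, and 31 UMIs in 4 normal cells. Il1b was 1053, 334 and 1288 CPM, with 63 of the 79 IMQ+celastrol UMIs in 1 cell.

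The mature gates of IMQ and normal skin held different mixes of cells. All 6 IMQ cells scored highest for the mature list, against 14 of 27 normal cells, and the summed mature list ran at 68.2 to 113 UMIs per 10000 in IMQ and at 0 to 191 in normal. The part of this mix in the differences between these gates was not tested. Of 1620 genes measured in the gate 14.4% were called higher and 9.14% lower in IMQ than in normal. Of 17 other mature genes measured, 8 were higher and 3 lower, and of 7 costimulation genes 4 were higher and 0 lower. Il4i1, an amino acid oxidase of mature cells, was 1113 CPM in the 6 IMQ cells and 312 CPM in the 27 normal cells, 3.56-fold higher (2.52 to 5.06). Cd86, a ligand of CD28, was 487 and 174 CPM, 2.80-fold higher (1.69 to 4.62), and Cd40 292 and 97.3 CPM, 3.0-fold higher (1.54 to 5.91). Ccl4 was at 0 in all 6 IMQ cells, and of 5 interferon genes measured 0 were higher and 4 lower, Isg15 with 3 UMIs in IMQ and 28 in normal among them.

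Transcripts of Langerhans cells moved with the mature gate. Mfge8, a secreted bridging protein abundant in Langerhans cells, ran at 2 to 351 UMIs in the 6 IMQ mature cells and at 0 to 16 UMIs in the 27 normal ones, at 6708 and 266 CPM. One IMQ cell held 351 of the 482 UMIs. It was 14268 CPM in IMQ Langerhans cells and 4189 CPM in normal ones. The summed Langerhans list (Cd207, Epcam, Mfge8, Ltc4s, Cldn1 and Cdh1) had medians of 59.5 UMIs per 10000 in the IMQ mature gate (6.64 to 171) and 2.11 in the normal mature gate (0 to 25.2), against 188 and 105 in Langerhans cells, and 2 of 5 list genes measured were higher. Cd207 itself was at most 3 UMIs in an IMQ mature cell. The rule used Cd207 with Epcam to part members from Langerhans cells. Their gap in this list, and low Cd207 in members with Epcam, were thus partly set in advance. In the 3 IMQ and 17 normal mature cells without the highest doublet scores Mfge8 was 11763 and 221 CPM. The part of Langerhans cells in the mature gate was not tested.

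Summed MHC class II transcripts were lower in both imiquimod libraries. The list of 11 presentation genes, which leaves out Cd74 because the rule used it, had medians of 263, 249 and 420 UMIs per 10000 in IMQ+celastrol, IMQ and normal members. In the type 1 gate these were 275, 298 and 422, with ranges of 263 to 359, 20.6 to 466 and 213 to 758 that overlap. In the type 2 gate they were 342 in IMQ and 449 in normal, but counted gene by gene 4 of the 11 were higher and 0 lower there, with a median log2 ratio of 0.63, so the sum and the median differ in sign. In the mature gate the sums were 129, 135 and 259. Langerhans cells had 462, 371 and 463. H2-Ab1, the class II beta chain, was 8894 CPM in IMQ+celastrol members, 6630 in IMQ and 14301 in normal, against 13274, 12097 and 13073 in Langerhans cells.

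The 5 IMQ+celastrol cells were too few to stand for a population, and each is described here. The first, in the mature gate (10679 UMIs), held 42 Ccr7, 63 Fscn1, 90 Ccl22, 32 Cd86, 63 Il1b and 59 Mfge8 UMIs and no Ptprc UMI. The second, also in the mature gate (16925 UMIs), held only 2 Ccr7 and 2 Fscn1 UMIs, with 17 Ptprc, 364 Ccl4, 190 Cxcl10, 68 Isg15, 55 Ifit1 and 31 Ifnb1 UMIs. Those 190 Cxcl10 UMIs were 97.4% of the total of the 5 cells. The 3 type 1 cells (4009, 21199 and 22186 UMIs) held 3, 31 and 27 Naaa UMIs, 7, 4 and 8 Wdfy4 UMIs and 1, 223 and 174 Ccl4 UMIs. The proliferation genes Mki67 and Top2a were detected in the deeper 2 of them, at 8 and 2 UMIs of Mki67 and 6 and 7 UMIs of Top2a. None of the 5 cells had a UMI of Cd209a, Mgl2, Cd207 or Ifitm1.

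Between IMQ+celastrol and IMQ members, 3.33% of 4326 genes were called higher and 6.63% lower, with a median log2 ratio of -0.14. Ifitm1, at 0 and 1006 UMIs, was at least 39.6-fold lower in IMQ+celastrol, where other kept cells held 130 CPM and those of IMQ 419 CPM. Of the 1006 UMIs, 357 were in the type 2 gate and 322 in ungated cells, where IMQ+celastrol had no cell. The IMQ type 1 gate held 324 in 9 of 13 cells and the mature gate 3, so this ratio mixes gate make-up and level. The neutrophil chemokine gene Cxcl2 had 11 and 936 UMIs, all 11 from 1 IMQ+celastrol cell and 474 of the 936 from 1 IMQ cell, and was 10-fold lower (5.59 to 20.2). Ccl22 was 9.30-fold higher (6.81 to 12.7), with every one of its 90 UMIs in the first cell described. Of 14 immediate early genes 8 were lower and 0 higher. Within the type 1 gate 3.24% of 1849 genes were called higher and 7.63% lower, and within the mature gate 11.8% of 709 higher and 17.3% lower. Relative to normal members, 8.23% of 5161 genes were called higher and 5.48% lower in IMQ+celastrol. In the type 1 gate these shares were 12.0% and 6.98% of 1118 genes, and in the mature gate 8.84% and 9.30% of 1301. Of 14 cell cycle genes measured 11 were higher and 0 lower in IMQ+celastrol, with a median log2 ratio of 1.87 over 5 cells. The 5 cells were uneven. The summed list ran at 24.9 to 93.9 UMIs per 10000 in the 3 type 1 cells and at 8.43 to 11.2 in the 2 mature cells. Normal members had a median of 7.12 (0 to 137). Mgl2, at 0 in IMQ+celastrol, was at least 24.4-fold lower than in normal, Cd209d at least 21.3-fold and Cd209a, a gene of the rule, at least 13.2-fold.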

How the data were processed

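For each library the authors deposited raw UMI counts, a matrix of 31053 genes by barcodes. Per the file headers, Cell Ranger 4.0.0 wrote these matrices. The builds mm10 and GRCm38 are named per the submitters' processing notes; the cell calling settings are not given in the sources used here.

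From these counts, cells were chosen by the rule in the opening with Python 3.11.15, numpy 2.4.6, scipy 1.17.1 and pandas 2.3.3. Counts of all cells in a gate or library were added up and scaled to CPM. A gene with at least 20 UMIs in both libraries together was called at a 2-fold ratio whose exact conditional binomial 95% interval left out 1, and shares have exact Clopper-Pearson intervals. Bounds against a count of 0 use a floor of 3 UMIs over the group, and list medians add 1 CPM before the logarithm. The calling step was checked on simulated counts. Doublet scores came from Scrublet in scanpy 1.11.5, and in each library the highest scores at 0.8% per 1000 cells were marked and kept. Thinning drew 2000 UMIs per cell.

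With 1 library per group there is no replicate, no p-value and no leave-one-out value, and intervals cover counting error only. The members, gates and gene lists were chosen with earlier results of these data known. Genes are named because they belong to the rule, the gates or a list, or because they were among the 10 highest or 10 lowest ratios of a comparison (10 CPM added) with at least 50 UMIs, a UMI in at least 10% of members and at least 2 times the CPM of other kept cells, in the library where they were higher. Ccr2 and other single genes outside these ratios come from the lists. The lectin genes Clec7a and Clec6a were not analysed here. Alternatives tried were other limits of the rule, gates, folds and UMI minimums, equal weights of cells or gates, centring, thinning and leaving out marked cells.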

Additional observations from a re-analysis of the deposited data

How the results depend on the processing

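No paired analysis was possible because each group is 1 library. With the highest doublet scores left out, the dendritic cell share ratio was 0.156 for IMQ over normal and 0 for IMQ+celastrol over IMQ and over normal, and 496 genes were higher in IMQ than in normal. Among Ptprc cells the IMQ over normal ratio was 0.172. After thinning, type 1 cells were 0% of IMQ+celastrol and 21.4% of IMQ dendritic cells, and mature cells 100%, 57.1% and 29.9% in IMQ+celastrol, IMQ and normal. With at least 3 of 8 markers, type 1 cells were 0% in IMQ+celastrol, type 2 cells 0% in IMQ and 35.1% in normal, and mature cells 100%, 37.5% and 40.4%. For IMQ over normal, genes higher were 1425 at 1.5-fold, 181 with at least 100 UMIs and 601 when centred on the median ratio, and genes lower 124 with at least 100 UMIs and 543 when centred. List genes higher were 30 and lower 21 with at least 100 UMIs, and lower 15 with gates weighted alike. For IMQ+celastrol over IMQ, genes higher were 26 with at least 100 UMIs and 260 with at least 1 UMI, and genes lower 118 with at least 100 UMIs. For IMQ+celastrol over normal, genes higher were 108 with at least 100 UMIs and 680 with at least 1 UMI, and list genes higher 24 with at least 100 UMIs. A higher UMI minimum leaves fewer genes to call; for the other settings the cause was not tested. Of these shares and counts, 128 further values stayed within their limits, and of the list medians 140 stayed and 22 moved; of the medians printed for all members, those of MHC class II genes (0.07, gates weighted alike) and chemokines (-0.02 with at least 1 UMI and -0.48 without keratinocyte or fibroblast RNA members) changed sign. Leaving out members with keratinocyte or fibroblast RNA was chosen after seeing the data. Expression could not be recomputed for IMQ+celastrol without the highest doublet scores, which leaves no cell, or with gates weighted alike, where 2 gates are empty. The IMQ+celastrol values rest on 74998 UMIs in 5 cells, all among the highest doublet scores.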

Other observations

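Hspa1a, an inducible chaperone, was 560 CPM in IMQ+celastrol, 1658 CPM in IMQ and 537 CPM in normal. MHC class I genes were higher in 2 of 13 and lower in none in IMQ against normal members, with a median log2 ratio of 0.35.

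S100a8, a neutrophil and stressed keratinocyte gene, had 5 UMIs in IMQ+celastrol members, 1366 in IMQ members and 0 in normal members. It was also present in 29.8%, 49.6% and 0.401% of fibroblast-marked cells. Of the 1366 IMQ UMIs, 275, 336 and 730 were in the 3 members that carried keratinocyte or fibroblast RNA. The median IMQ member held 1 S100a8 UMI.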
